A study of Homo sapiens with 6 samples.

Results

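The cytosolic ribosomal protein genes encode the proteins of the large and small subunits of the ribosome that translates mRNAs in the cytoplasm. They were taken from the table of counts as protein-coding genes outside chromosome Y with the symbol of a large subunit protein (RPL and a number, RPLP0, RPLP1 or RPLP2) or of a small subunit protein (RPS and a number, or RPSA). Paralogs whose symbols end in L or L1 were included. Of 84 rows that matched, 82 passed the expression filter of edgeR and were tested among 15615 genes in all, 50 of the large and 32 of the small subunit. The 2 rows that did not pass were RPL3L, with 1 read over the 6 libraries, and a second row named RPL41 on chromosome 7, with 1 to 6 reads per library.

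The libraries were made from polyadenylated RNA of A549 cells, an established lung adenocarcinoma line, to study which genes depend on DDX17, a DEAD-box RNA helicase that takes part in transcription and splicing. Cells of 3 cultures received a nontargeting siRNA (siCtrl) and cells of 3 others an siRNA against DDX17 (siDDX17), both with Lipofectamine 2000. The methods give 1 siRNA sequence for the knockdown and name 3 biological replicates, so p-values measure the spread between these cultures. A harvest at 48 h is given for RT-qPCR, and the labels list the controls as "control plasmid" in the genotype field although the methods describe a siRNA.

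DDX17 (chr22:38483438-38507660, minus strand, GRCh38) was measured at 177 to 206 CPM (counts scaled to the depth of each library with TMM factors) in the siCtrl libraries and at 30.4 to 32.1 CPM in the siDDX17 libraries, which fits the labels. It fell by 2.60 on the log2 scale (adjusted p = 5.89e-11 in edgeR's quasi-likelihood test). The libraries held 30658136 to 39182371 counted reads. The epithelial markers KRT8, KRT18 and AKR1B10 had 75067 to 164723 reads per library and AKR1C1 34556 to 50399. KRT19 had 1049 to 1481 reads, CDH1 508 to 634 and EPCAM only 25 to 88. Of the leukocyte and fibroblast markers, PTPRC, LUM and DCN had 0 to 9 reads and CD68 26 to 79, a range like that of EPCAM. Of the 7 epithelial markers, 5 were lower in siDDX17 and 1, EPCAM, was higher. Their median log2 fold change was -0.28, and the part of this in the results below was not tested. The library siCtrl 1 stood apart from the other 2 controls in the ribosomal protein genes. Where calls of single ribosomal protein genes are given below, those that depend on siCtrl 1 are given with and without it.

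Ribosomal proteins assemble in fixed proportions on a scaffold of ribosomal RNA, so a cell has to make them in step. Their mRNAs are among the most abundant of a growing cell, and in vertebrates most of them begin with a C followed by an unbroken run of pyrimidines, the 5' terminal oligopyrimidine (TOP) motif, through which mTORC1 and the RNA-binding protein LARP1 control their translation and stability. Several of these genes have a duplicated copy whose protein is closely related to that of the parent gene. In cells whose ribosome assembly is disturbed, free ribosomal proteins, above all RPL5 and RPL11, bind MDM2 and thereby raise p53.

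The transcription starts of the genes that the results turn on are shown here because they differ in this motif. Each line holds 15 bases before and 15 bases from the start annotated by RefSeq (GRCh38.p14), read 5' to 3' on the strand of the gene. Capitals mark the longest run of C and T that touches the 5 bases on either side of the start, and where RefSeq lists several starts the one with the longest run is shown.
RPL22 (chr1:6199581-6199610, minus strand): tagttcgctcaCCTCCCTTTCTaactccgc
RPL22L1 (chr3:170870181-170870210, minus strand): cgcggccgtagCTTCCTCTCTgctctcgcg
RPL26 (chr17:8383179-8383208, minus strand): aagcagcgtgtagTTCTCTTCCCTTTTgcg
RPL26L1 (chr5:172958714-172958743, plus strand): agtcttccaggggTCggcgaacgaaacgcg
RPL7L1 (chr6:42879601-42879630, plus strand): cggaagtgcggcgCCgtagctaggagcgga
RPS27 (chr1:153990747-153990776, plus strand): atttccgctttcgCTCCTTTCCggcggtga
RPS27L (chr15:63157463-63157492, minus strand): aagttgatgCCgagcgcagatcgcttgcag
RPL11 (chr1:23691791-23691820, plus strand): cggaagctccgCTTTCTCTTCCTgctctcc
RPL3 (chr22:39319609-39319638, minus strand): gtaaggccgaccggCCTCTaccggcgggat
RPS26 (chr12:56041903-56041932, plus strand): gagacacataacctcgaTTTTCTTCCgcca
RPS15 (chr19:1438381-1438410, plus strand): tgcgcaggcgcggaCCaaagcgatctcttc
RPS6 (chr9:19380222-19380251, minus strand): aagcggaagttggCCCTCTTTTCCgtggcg
RPLP0 (chr12:120201097-120201126, minus strand): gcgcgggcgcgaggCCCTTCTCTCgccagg
RPL41 (chr12:56116618-56116647, plus strand): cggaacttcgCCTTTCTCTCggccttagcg

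A start was found in the RefSeq table for 66 of the 82 genes. RPL23, RPL23A, RPL30, RPL37, RPL39L, RPL5, RPL7, RPL8, RPS15A, RPS2 and RPS20 were among those not matched. A run of at least 5 pyrimidines at the start was present in 57 of the 66 (86.4%), with a median length of 11. The same was true of 39.2% of the 27305 genes in the table and of 42.0% of the other tested protein-coding genes, for which the median run was 4. The first transcribed base was a C in 74.2% of the ribosomal protein genes and in 13.1% of the other tested protein-coding genes. Of the 4 paralogs matched, RPL22L1 had a run of 10, as its parent RPL22 had one of 11, whereas RPL26L1, RPL7L1 and RPS27L had runs of 2. The starts of the genes for mitochondrial ribosomal proteins had such a run in 24 of 69 cases (34.8%). A run is a description of these windows and not a measured start of the mRNAs in A549 cells.

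The ribosomal protein genes were among the most abundant mRNAs of A549 cells, with a median of 878 FPKM (a level per transcript length) in siCtrl and an interquartile range of 450 to 1551. The median over all tested genes was 2.77 FPKM. Of the 100 genes with the highest level, 45 were ribosomal protein genes, and 74 of the 82 had more than 100 FPKM. RPS2, a small subunit protein near the mRNA entry channel, had the highest level with 4303 ± 306 FPKM (SD, n = 3) in siCtrl, followed by RPL13A with 4012 ± 217. RPS16 (3907 ± 157) and RPL41 (3738 ± 173), the smallest ribosomal protein, came next, and RPL39, a small protein of the exit tunnel, was at 3453 ± 305 FPKM. The lowest levels were those of the paralogs and of RPS10 and RPL17. Among the paralogs RPL22L1 was at 38.5 ± 2.78, RPL7L1 at 28.5 ± 0.441, RPL26L1 at 27.3 ± 0.951, RPS27L at 26.7 ± 1.51 and RPL39L at 18.7 ± 1.67 FPKM in siCtrl.

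**Figure D1:**
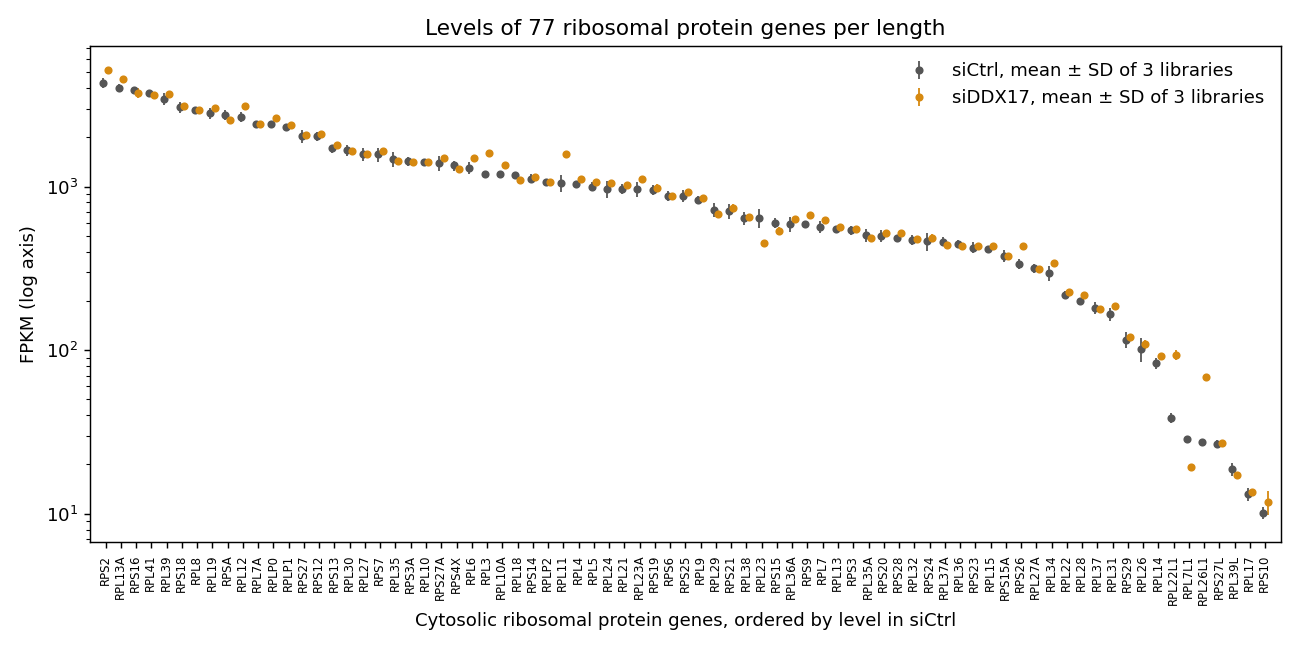
Level of 77 of the 82 genes in FPKM on a log axis, as the mean ± SD of 3 siCtrl (grey) and 3 siDDX17 (orange) libraries, ordered by the siCtrl level. The genes span 10.1 to 4303 FPKM in siCtrl, and the orange points of RPL22L1 and RPL26L1 lie well above the grey ones, while those of RPL7L1 and RPL23 lie below.

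RPS10 and RPL17 were singled out after their values were seen. RPS10 was counted at 9.72 to 14.0 CPM in the 6 libraries, while the overlapping read-through gene RPS10-NUDT3 (chr6:34284887-34426071, minus strand) was at 865, 1016 and 1002 CPM in siCtrl and 900, 966 and 890 CPM in siDDX17, within the range of the other small subunit genes. The read-through gene was not called (log2 fold change -0.07, adjusted p = 0.460 in edgeR). RPL17 was counted at 15.1 to 18.3 CPM. How the counting program assigned reads to overlapping genes is not given in the sources used here, so the levels of these genes are uncertain. The same holds for reads shared with processed pseudogenes, of which the table has 259 rows for ribosomal proteins. Reads counted in these pseudogenes made up 0.0304% to 0.0331% of a siCtrl library and 0.0339% to 0.0368% of a siDDX17 library.

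Most of the ribosomal protein genes did not pass the test for a change after knockdown of DDX17. With an adjusted p under 0.05 in edgeR and no limit on the fold change, 5 of the 82 (6.10%) were higher in siDDX17, against 24.5% of all tested genes. Another 13 (15.9%) were lower, against 24.3% of all tested genes, and 64 did not pass. The median log2 fold change of the 82 was -0.08, with an interquartile range of -0.14 to -0.02, whereas all tested genes had a median of 0.01 and a range of -0.27 to 0.33 between quartiles. Values were below 0 for 66 genes and above 0 for 16. In bulk RNA, fewer cells of a kind and less RNA per cell cannot be told apart. The large subunit had 4 higher and 7 lower of 50 and a median of -0.08, and the small subunit 1 higher and 6 lower of 32 and a median of -0.09. Without siCtrl 1 these medians were -0.14 and -0.17, and without siCtrl 2 they were -0.05 and -0.04.

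**Figure D2:**
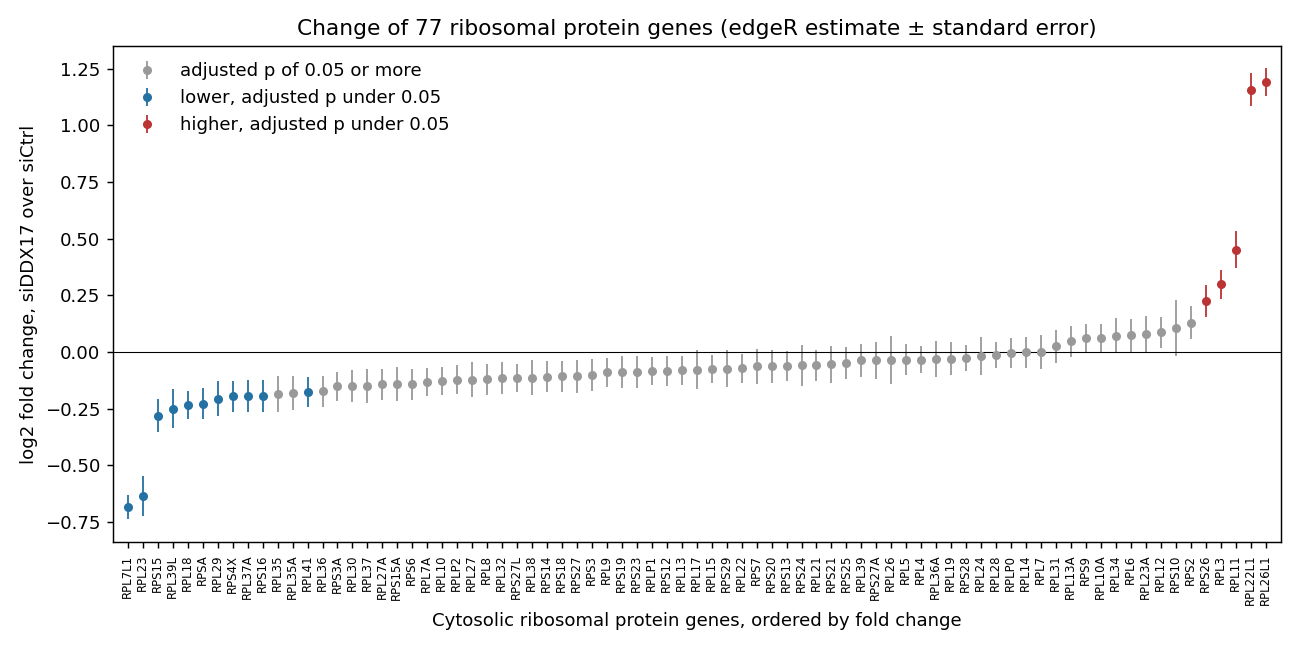
Log2 fold change of siDDX17 over siCtrl for 77 of the 82 genes, with bars for ± 1 standard error of the edgeR estimate, ordered from lowest to highest. RPL7L1 and RPL23 at the left end and RPL11, RPL22L1 and RPL26L1 at the right end stand clear of the rest, most of which lie between -0.25 and 0.

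The number of genes called lower depended on the scaling and on the libraries. Scaled by library size only, 14 genes (17.1%) were higher and 3 (3.66%) lower, against 33.5% and 16.0% of all tested genes, and their median was 0.04 where that of all genes was 0.13. Thus the direction of the small median change flipped with the scaling, while the median lay under that of all genes in both. Without siCtrl 1, 5 genes (6.10%) were higher and 59 (72.0%) lower, against 26.4% and 27.0% of all tested genes, and their median was -0.16. Without siCtrl 2 the count of lower genes was 5 (against 21.9% of all tested genes), and without siCtrl 3 or siDDX17 1 it was 4 (against 23.0% and 20.4%). Without siDDX17 2 it was 9 (against 20.6%) and without siDDX17 3 it was 3 (against 19.6%). With a limit of 2-fold, RPL26L1 and RPL22L1 were higher (2.44%) and 0 genes were lower, against 4.65% and 2.92% of all tested genes. At an unadjusted p under 0.01 and 1.5-fold, the limits of the methods, these 2 were higher and 2 genes, RPL7L1 and RPL23, were lower, against 11.0% and 8.03% of all tested genes. The libraries of the groups did not overlap for 5 genes that were higher (6.10%) and 10 that were lower (12.2%), against 28.8% and 27.7% of all tested genes.

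The largest increases were those of paralogs of the large subunit. RPL26L1 (chr5:172958729-172969771, plus strand), a close copy of RPL26, was at 28.2, 30.1 and 27.4 CPM in siCtrl and at 64.9, 63.7 and 66.8 CPM in siDDX17. All siDDX17 libraries were above all controls, and the increase was 1.19 on the log2 scale (standard error 0.0602, adjusted p = 7.97e-09 in edgeR). RPL22L1 (chr3:170864875-170870208, minus strand), the copy of the RNA-binding ribosomal protein RPL22, was at 85.4, 102 and 89.2 CPM in siCtrl and at 220, 195 and 201 CPM in siDDX17. It rose by 1.16 on the log2 scale (standard error 0.0733, adjusted p = 5.19e-08 in edgeR), again without overlap between the groups.

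Their parents did not pass the test. RPL22 was at 583, 681 and 627 CPM in siCtrl and at 611, 574 and 615 CPM in siDDX17, with a log2 fold change of -0.07 (adjusted p = 0.382 in edgeR). RPL26 was at 143, 208 and 181 CPM in siCtrl and at 168, 188 and 165 CPM in siDDX17, a log2 fold change of -0.03 (adjusted p = 0.810). The libraries of the groups overlapped for both parents. Without siCtrl 1, the lowest control for both, RPL22 and RPL26 were called lower, with log2 fold changes of -0.13 (adjusted p = 0.0153) and -0.18 (adjusted p = 0.00703).

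The opposite was found for RPL7L1 (chr6:42879616-42889925, plus strand), a paralog of RPL7. It was at 142, 147 and 148 CPM in siCtrl and at 93.7, 88.5 and 89.7 CPM in siDDX17. It fell by 0.68 on the log2 scale (standard error 0.0539, adjusted p = 3.46e-07 in edgeR), the lowest value of the 82 genes. RPL7 had a log2 fold change of 0.00, with 1302, 1582 and 1517 CPM in siCtrl and 1541, 1402 and 1458 CPM in siDDX17.

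The other paralogs had smaller log2 fold changes. RPL39L, best known from the testis, was at 19.0, 22.9 and 23.0 CPM in siCtrl and at 19.0, 18.0 and 17.5 CPM in siDDX17, so that siDDX17 1 overlapped with siCtrl 1. It was called lower (log2 fold change -0.25, standard error 0.0861, adjusted p = 0.0276 in edgeR), and RPL39 was not (log2 fold change -0.04). Without siCtrl 1 RPL39 was called lower too (log2 fold change -0.13, adjusted p = 0.0107). RPS27L, a p53 target in many cells, was at 212, 242 and 240.5 CPM in siCtrl and at 215, 211 and 215 CPM in siDDX17, and was not called (log2 fold change -0.11, adjusted p = 0.147). RPS27 had the same log2 fold change of -0.11 and was not called either. Without siCtrl 1 both RPS27L and RPS27 were called lower (log2 fold change -0.18 each, adjusted p = 0.00109 and 0.00152).

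The balance within each pair was followed as the paralog's share of the reads of paralog and parent, which does not depend on scaling between libraries. The share of RPL22L1 was 12.8%, 13.0% and 12.4% in siCtrl against 26.5%, 25.4% and 24.7% in siDDX17. The log2 ratio of RPL22L1 to RPL22 went from -2.77 ± 0.038 to -1.55 ± 0.070 (SD, n = 3), a difference of 1.23. RPL26L1 took 16.5%, 12.6% and 13.1% in siCtrl and 27.9%, 25.3% and 28.8% in siDDX17, a difference of 1.21 in the log2 ratio. For RPL7L1 the share was 9.85%, 8.49% and 8.88% in siCtrl and 5.73%, 5.94% and 5.79% in siDDX17, a difference of -0.69. In these 3 pairs the 3 siDDX17 libraries lay apart from the 3 controls.

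The ratio of RPL39L to RPL39 differed by -0.22, from a share of 1.37% to 1.44% in siCtrl to 1.17% to 1.29% in siDDX17. RPS27L took 12.0% to 13.5% in siCtrl and 12.3% to 12.9% in siDDX17, and RPL36AL, a copy of RPL36A outside the symbol rule, 21.2% to 22.2% and 21.5% to 22.1%. The groups overlapped in both of these pairs. RPL36A itself was not called (log2 fold change -0.03), but without siCtrl 1 it was called lower. In an exact two-sided permutation test over the 3 and 3 libraries the p of the pairs of RPL22L1, RPL26L1, RPL7L1 and RPL39L was 0.1, the smallest this design allows, and 0.15 after adjustment over the 6 pairs. For RPS27L and RPL36AL it was 0.9.

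**Figure D3:**
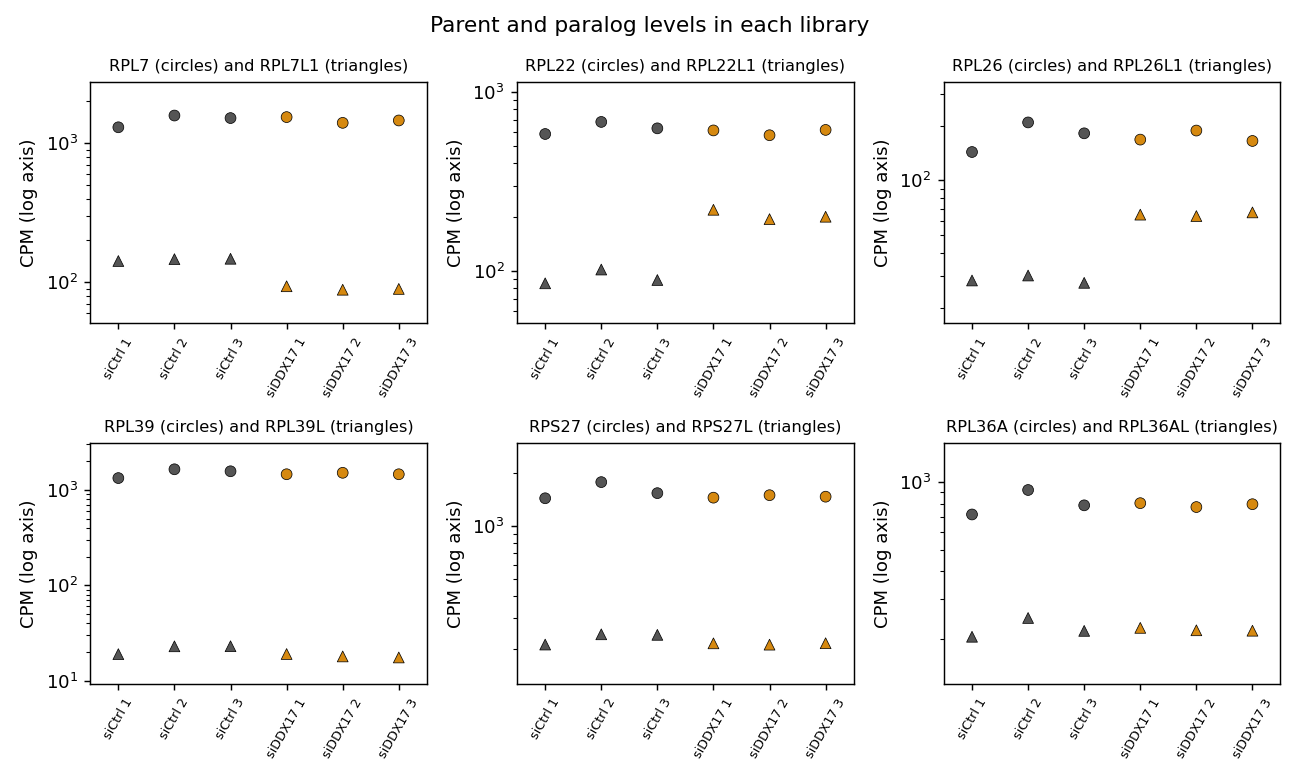
CPM of parent (circles) and paralog (triangles) in each of the 6 libraries for 6 pairs, on log axes with siCtrl in grey and siDDX17 in orange. The triangles of RPL22L1 and RPL26L1 move up and those of RPL7L1 move down in all 3 siDDX17 libraries, while the circles of the groups overlap.

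Among the canonical ribosomal proteins 3 genes rose. RPL11 (chr1:23691742-23696835, plus strand), which binds the small ribosomal RNA of the large subunit together with RPL5, was at 624, 821 and 740 CPM in siCtrl and at 1008, 989 and 991 CPM in siDDX17. It rose by 0.45 on the log2 scale (standard error 0.0822, adjusted p = 0.000512 in edgeR), with all siDDX17 libraries above all controls. RPL5, its partner in that complex, was at 1035, 1223 and 1161 CPM in siCtrl and at 1154, 1069 and 1115 CPM in siDDX17 and was not called (log2 fold change -0.03, adjusted p = 0.701). The libraries of RPL5 overlapped, and without siCtrl 1 it was called lower (log2 fold change -0.11, adjusted p = 0.0416), the opposite direction to RPL11.

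RPL3 (chr22:39312882-39320389, minus strand), a core protein near the peptidyl transferase centre, was at 1773, 1999 and 1980 CPM in siCtrl and at 2339, 2389 and 2342 CPM in siDDX17. It rose by 0.30 on the log2 scale (standard error 0.0621, adjusted p = 0.00140 in edgeR). RPS26 (chr12:56041351-56044697, plus strand), at the mRNA exit channel of the small subunit, was at 392, 466 and 455 CPM in siCtrl and at 492, 541 and 503 CPM in siDDX17. Its log2 fold change of 0.23 (adjusted p = 0.0170) was 0.18 without siDDX17 2, where the adjusted p was 0.0908, and 0.14 without siCtrl 1, where it was still called. The other 4 higher genes were called in each of 16 alternative fits with the same threshold. RPL11, RPL22L1, RPS26 and RPL3 had pyrimidine runs of 12, 10, 9 and 5 at their starts, and RPL26L1 one of 2.

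Among the genes called lower, RPL23 stood next to RPL7L1. RPL23 (chr17:38847860-38853764, minus strand), a large subunit protein that can bind MDM2, was at 1825, 2476 and 2230 CPM in siCtrl and at 1433, 1394 and 1379 CPM in siDDX17. It fell by 0.63 on the log2 scale (standard error 0.0894, adjusted p = 6.38e-05 in edgeR), and its controls spread more widely than its siDDX17 libraries. RPL7L1 and RPL23 were called lower in each of these 16 fits.

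RPS15 (chr19:1438358-1440495, plus strand), a protein of the head of the small subunit, was at 763, 911 and 860 CPM in siCtrl and at 666, 746 and 672 CPM in siDDX17, without overlap. It fell by 0.28 on the log2 scale (standard error 0.0725, adjusted p = 0.00574 in edgeR), and it was called when any 1 of the 6 libraries was left out, but not in limma on log2(FPKM + 1) or log2(FPKM + 0.1). RPL18 was at 1742, 1920 and 1872 CPM against 1514, 1665 and 1530 CPM (log2 fold change -0.23, adjusted p = 0.00761). RPSA, known also as the laminin receptor, was at 3260, 3648 and 3783 CPM against 2952, 3205 and 2965 CPM (log2 fold change -0.23, adjusted p = 0.0139). RPL18 missed the threshold without siDDX17 1 (adjusted p = 0.0553) and without siDDX17 3 (0.0507), and RPSA without siCtrl 3 (0.0610), siDDX17 1 (0.0783) or siDDX17 3 (0.0742). Both also lost the call with library size only and in limma with either pseudocount.

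The remaining 8 lower genes, RPL39L among them, each lost the call without 4 or 5 of the 6 libraries in turn, and with library size only. RPL29 was at 1088, 1340 and 1346 CPM in siCtrl and 1060, 1126 and 1085 CPM in siDDX17, with siCtrl 1 inside the range of siDDX17 (log2 fold change -0.21, adjusted p = 0.0411 in edgeR). RPS4X, the copy on chromosome X, was at 2030, 2428 and 2284 CPM against 1986, 1934 and 1967 CPM (log2 fold change -0.20, adjusted p = 0.0295). Its siDDX17 libraries were separated from the controls by the narrow gap to siCtrl 1. RPL37A (log2 fold change -0.19, adjusted p = 0.0330), RPS16 (-0.19, 0.0368) and RPL41 (-0.18, 0.0402) were also among them. RPS4X and RPL37A fall outside the rule for named genes and were chosen after their values were seen.

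The proteins of the stalk, with which the large subunit recruits elongation factors, did not pass. RPLP0 was at 4451, 5025 and 4842 CPM in siCtrl and at 4599, 5015 and 4642 CPM in siDDX17 (log2 fold change -0.01, adjusted p = 0.947 in edgeR). RPLP1 and RPLP2 had log2 fold changes of -0.09 (adjusted p = 0.271) and -0.12 (adjusted p = 0.126), with overlapping libraries for both. RPS6, the target of the S6 kinases, was at 2187, 2577 and 2514 CPM in siCtrl and at 2190, 2264 and 2141 CPM in siDDX17 (log2 fold change -0.14, adjusted p = 0.103). RPS27A, made as a fusion to ubiquitin, was at 1797, 2307 and 2200 CPM against 2104, 2037 and 2007 CPM (log2 fold change -0.04, adjusted p = 0.740). In each of RPS6 and RPS27A the lowest control, siCtrl 1, lay among the siDDX17 libraries or below them. Without siCtrl 1, RPLP1, RPLP2, RPS6 and RPS27A were called lower with log2 fold changes of -0.13, -0.18, -0.22 and -0.15, and RPLP0 was not called in any alternative.

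The 5 genes with the highest levels did not all move alike: RPS16 and RPL41 were called lower, as given above, and RPS2, RPL13A and RPL39 were not called. RPS2 was at 4919, 5907 and 5590 CPM in siCtrl and at 5867, 6227 and 5863 CPM in siDDX17 (log2 fold change 0.13, adjusted p = 0.159 in edgeR), and RPL13A had a log2 fold change of 0.05. With library size only both were called higher (0.25 and 0.17). Over the 82 genes Spearman's rho between log2 fold change and siCtrl level was -0.103, a description across genes that share their libraries. Genes without the paralogs whose start had a run of at least 5 pyrimidines had a median log2 fold change of -0.07 (n = 56), and those with a shorter run -0.08 (n = 6).

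The ribosomal protein genes varied together from library to library. The median deviation of a gene from its own mean over the 6 libraries was -0.10, 0.14 and 0.07 in siCtrl 1, 2 and 3 on the log2 CPM scale, and -0.06, -0.00 and -0.06 in siDDX17 1, 2 and 3. The spread of these medians among the controls was larger than the difference between the groups. siCtrl 1 was the lowest control for 80 of the 82 genes (97.6%), while it was the lowest for 38.1% of all tested genes. With library size only the same was true of 77 of the 82 (93.9%), against 28.3% of all tested genes. The median log2 difference of siCtrl 1 from the mean of the other controls was -0.21 for the ribosomal protein genes, -0.18 for the 78 mitochondrial ribosomal protein genes and 0.01 for all tested genes. What set siCtrl 1 apart was not tested.

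The share of all reads that fell in the 82 genes was 12.6%, 14.0% and 13.7% in siCtrl 1, 2 and 3 and 13.8%, 14.1% and 13.9% in siDDX17 1, 2 and 3. The means were 13.4% ± 0.752 and 13.9% ± 0.185 (SD, n = 3), a difference of 0.498 percentage points that was smaller than the SD of the controls and 0.0751 without siCtrl 1. The large subunit took 7.54% to 8.36% in siCtrl and 8.25% to 8.43% in siDDX17, and the small subunit 5.06% to 5.68% and 5.52% to 5.71%. Over the same libraries the share of reads from the mitochondrial genome was 13.6% ± 0.635 in siCtrl and 10.5% ± 0.316 in siDDX17, and its part in the other shares was not tested. Of the reads outside the mitochondrial genome, the ribosomal protein genes took a mean of 15.6% in both groups, a difference of 0.00991 percentage points. The SD of this share was 0.836 among the controls and 0.187 among the siDDX17 libraries. Its lowest value was 14.7% for siCtrl 1, while siCtrl 2 reached 16.3% and siCtrl 3 15.7%, both above the siDDX17 mean. The siDDX17 libraries lay between 15.4% and 15.8%. The equal means thus depended on siCtrl 1. Of the summed FPKM the ribosomal protein genes took 16.7%, 18.2% and 18.1% in siCtrl and 19.0%, 19.3% and 19.3% in siDDX17, so that the groups did not overlap on that scale.

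**Figure D4:**
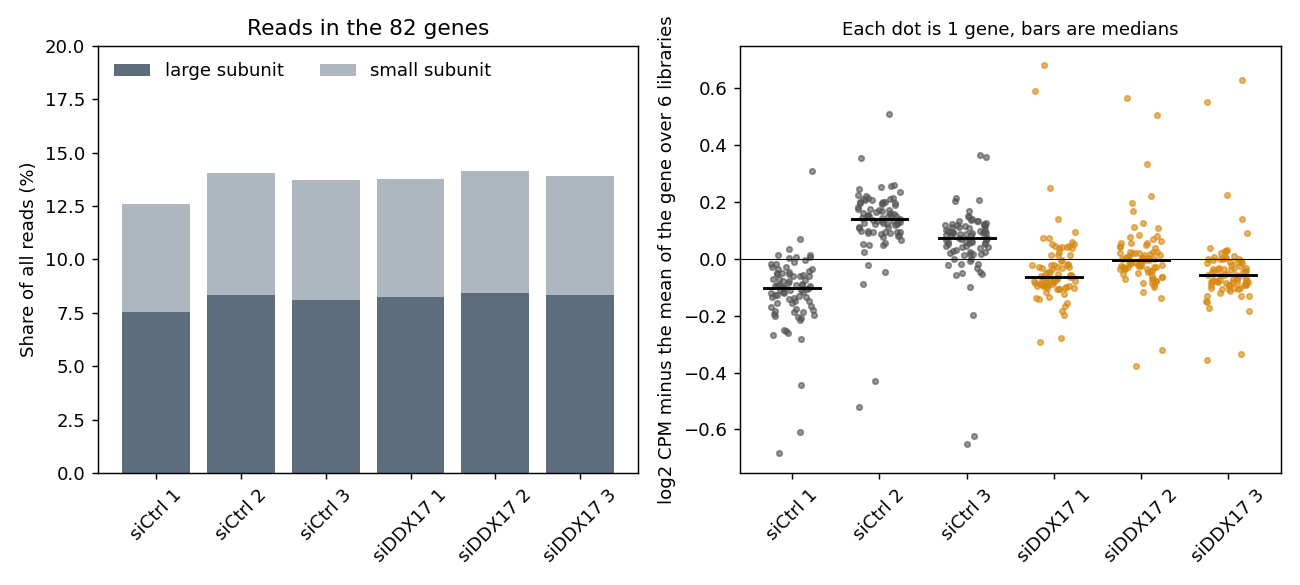
Left, share of all reads in the 82 genes for each library, split into large (dark) and small (light) subunit, from 12.6% in siCtrl 1 to 14.1% in siDDX17 2. Right, log2 CPM of each gene minus its mean over the 6 libraries (1 dot per gene, bars are medians), with siCtrl 1 lowest and siCtrl 2 highest.

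The genes around the ribosome were described by lists chosen with earlier results of these data known. Of the 291 genes tested in all lists, the paralogs, stalk proteins and cell markers included, 127 were called in edgeR. The count lay between 104 without siDDX17 3 and 171 without siCtrl 1. The shares of all tested genes moved in the same direction. They were 20.1% higher and 19.6% lower without siDDX17 3, and 26.4% higher and 27.0% lower without siCtrl 1. Of 21 TOP mRNAs that encode other proteins, 6 were higher (28.6%) and 3 lower (14.3%), with a median log2 fold change of 0.06. The shares of all tested genes, 24.5% higher and 24.3% lower, are the background for this and the other lists. The values of the TOP list include siCtrl 1, whose median log2 difference from the mean of the other controls was -0.11 for these genes. EIF3F, a subunit of the initiation factor that binds the small subunit, rose by 0.95, from 187, 187 and 177 CPM in siCtrl to 352, 375 and 340 CPM in siDDX17. EEF1D (0.80), of the exchange factor for elongation, and EEF2 (0.50), the translocation factor, were also higher. HNRNPA1 fell by 1.03, from 648, 660 and 612 CPM to 326, 299 and 313 CPM, PFDN5 had a log2 fold change of -0.33 and EEF1G one of -0.20. The call of EEF1G was lost with library size only (adjusted p = 0.181). These TOP mRNAs thus spanned a wider range than the canonical ribosomal proteins, whose log2 fold changes lay between -0.63 and 0.45.

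Of 84 ribosome biogenesis factors, 17 were higher (20.2%) and 27 lower (32.1%), against 24.5% and 24.3% of all tested genes, with a median of -0.05 and a range of -1.11 to 1.71. The highest were NOLC1 (1.71) and TCOF1 (1.06), nucleolar phosphoproteins that act in ribosomal RNA transcription and modification, and DHX37 (0.84), a helicase of the small subunit pathway. NOLC1 was at 57.4, 55.3 and 53.2 CPM in siCtrl and at 184, 178 and 182 CPM in siDDX17, and TCOF1 at 48.5, 57.3 and 51.6 against 111, 111 and 105 CPM. The groups did not overlap for either gene. The lowest were the helicases DDX47 (-1.11) and DDX10 (-0.81) and BOP1 (-1.07), which processes the ribosomal RNA of the large subunit. BOP1 was at 191, 213 and 210 CPM in siCtrl and at 96.5, 100 and 94.6 CPM in siDDX17.

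Of 15 genes of RNA polymerase I and its factors, which transcribe the ribosomal RNA genes, 4 were higher and 3 lower. POLR1B (0.46), TAF1D (0.44) and UBTF (0.35) were higher, and the initiation factor RRN3 (-0.85), TWISTNB (-0.55) and POLR1C (-0.50) were lower. Of 8 genes listed as chaperones or partners of ribosomal proteins, not all of them dedicated chaperones, 1 was higher and 5 were lower, with a median of -0.26. GRWD1, the chaperone of RPL3, fell by 0.57, from 110, 124 and 128 CPM in siCtrl to 79.5, 85.6 and 78.0 CPM in siDDX17, while RPL3 itself was higher. TSR2, the chaperone of RPS26, was higher by 0.25, as RPS26 was. HEATR3 (-0.52), which takes part in the import of RPL5, and NVL (-0.40) were lower.

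Of 14 genes that control the translation of ribosomal protein mRNAs, 1 was higher and 6 were lower. LARP1, which binds the TOP motif, was at 157, 150 and 154 CPM in siCtrl and at 185, 178 and 179 CPM in siDDX17 (log2 fold change 0.24, adjusted p = 0.00212 in edgeR). LARP4 (-0.63), the mTORC1 activator RHEB (-0.36) and EIF4EBP1 (-0.31), a repressor of cap-dependent initiation, were the lowest. Of the cytosolic ribosomal proteins outside the symbol rule, FAU and RPL36AL were not called, and GNB2L1, also called RACK1 (-0.20), was lower. The call of GNB2L1 was lost with library size only (adjusted p = 0.156).

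Of the genes for mitochondrial ribosomal proteins, which form a separate ribosome, 16 of 78 (20.5%) were higher and 21 (26.9%) lower, with a median of -0.03. These values include siCtrl 1, whose median log2 difference from the other controls was -0.18 for these genes. MRPS6 (0.90), MRPS34 (0.58) and MRPL30 (0.51) were the highest and MRPS18A (-0.78) and MRPL2 (-0.55) among the lowest. Whether the shares called differ between the families was not tested. Of 50 ribosomal protein pseudogenes tested, 2 were higher (RPL23AP7, 0.83, and RPL23AP82, 0.70) and 3 lower (RPL4P6, -1.93, RPL39P5, -0.85, and RPS2P32, -0.51), at levels of 0.110 to 22.6 CPM.

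**Figure D5:**
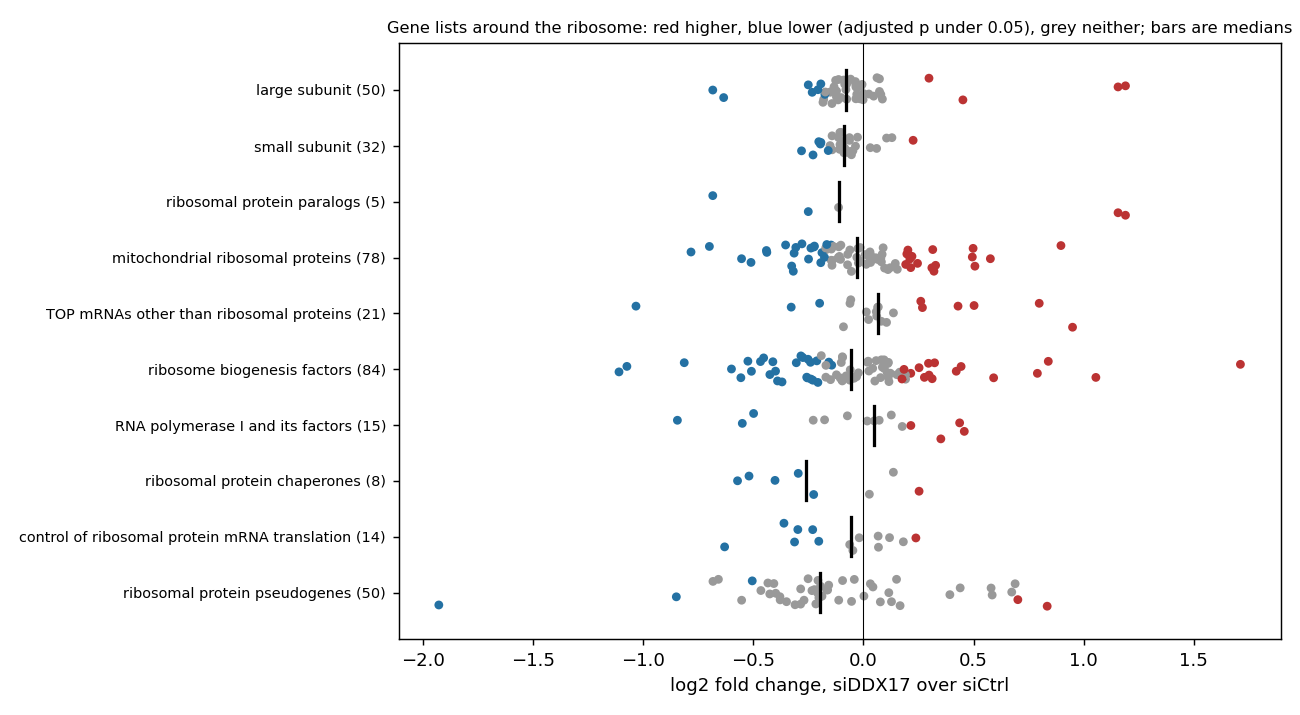
Log2 fold change of siDDX17 over siCtrl for each gene of 10 groups (number of genes in brackets), with genes called higher in red, called lower in blue and the rest in grey, and the median of each group as a bar. The large and small subunit genes form narrow columns with medians of -0.08 and -0.09 and a few outlying genes such as RPL22L1, RPL26L1, RPL7L1 and RPL23, while biogenesis factors span -1.11 to 1.71.

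Bases 2 to 8 of an siRNA strand can pair with 3' UTRs of other mRNAs. For the antisense strand of the siRNA used against DDX17, 4 of 81 ribosomal protein genes (4.94%) held the matching 7 bases, namely RPL37A, RPL7L1, RPS15A and RPS3, as did 14.5% of 12987 tested genes (those with 30 or more bases of 3' UTR). The match to the sense strand was present in RPL23, RPL38, RPS14 and RPS6, and in 10.5% of those genes. RPL7L1 and RPL23, the lowest of the 82 genes, each carried 1 of these matches, and RPL37A was also called lower. The other carriers were not called (log2 fold changes of -0.14 to -0.10), though without siCtrl 1 they were called lower. Over all genes with the match the median was -0.03 (antisense) and -0.005 (sense), against 0.01 for all tested genes. Over the ribosomal protein genes with it the median was -0.17 and -0.13, against -0.08 for the 82. For the control siRNA, RPL13A carried the match to the sense strand and 0 of the 81 the match to the antisense strand, where 2.13% and 3.07% of all genes did. The 3' UTRs of the ribosomal protein genes had a median length of 166 bases, and those of all genes 1295. Whether these matches bear on the levels was not tested.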

How the data were processed

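After trimming and mapping with TopHat2 to GRCh38, the authors deposited, for each of 6 unpooled libraries, raw counts per gene from uniquely mapped reads and FPKM values, which are normalized for gene length and library size. The kit was stranded. The counting program, its use of strand and the annotation release are not given in the sources used here. The counts (29476 genes) were tested in edgeR 4.0.16 (R 4.3.3) with TMM factors, filterByExpr, glmQLFit, glmQLFTest and Benjamini-Hochberg adjustment over 15615 genes, at an adjusted p under 0.05, after the scripts were tested on simulated data. Sums and shares used counts, and levels between genes the deposited FPKM. The members, lists and tests were chosen with earlier results of these data known. Genes were named by rule, namely the 8 called members with the largest and the 8 with the smallest log2 fold changes, the 5 with the highest siCtrl FPKM, RPLP0, RPLP1, RPLP2, RPL5, RPL11, RPS6, RPSA, RPS27A, the pairs, and the 3 called genes per list and direction with the largest change. Positions are from GENCODE release 44, matched by gene identifier, and starts from RefSeq. Alternatives were DESeq2 1.42.0, limma 3.58.1 on log2(FPKM + 1) and log2(FPKM + 0.1), RLE, upper quartile or no scaling factors, factors without the members, other count filters and fold limits, a replicate block and each library left out. Some genes are not reported here.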

Additional observations from a re-analysis of the deposited data

How the results depend on the processing

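Counts of ribosomal protein genes called higher and lower were 5 and 13 (24.5% and 24.3%). Percentages in brackets are the shares of all genes tested in the same fit. With DESeq2, RLE factors, factors without the members or at least 10 counts in every library, 5 were higher (21.89% to 26.11%). In these fits 9 to 17 were lower (23.23% to 25.03%). The count of higher genes was 14 with library size only (33.5%). It was 14 in limma on log2(FPKM + 1) (33.3%) and 13 on log2(FPKM + 0.1) (33.4%). It was 2 over 2-fold (4.65%) and 2 at p under 0.01 and 1.5-fold (11.0%). The count of lower genes was 5 with upper quartile factors (22.2%), 3 with library size only (16.0%) and 24 without a low-count filter (13.5%). The fit without a filter held 29476 genes, among them those with few reads that the filter removes, while the 82 stayed the same. Its share of all genes called lower is therefore not comparable with the 24.3% of the filtered fit. No excess of lower ribosomal protein genes can be read from it. The count of lower genes was 2 in limma with either pseudocount (15.2% in each), 0 over 2-fold (2.92%) and 2 at p under 0.01 and 1.5-fold (8.03%). Leaving out 1 library gave 4 to 5 higher (20.1% to 26.4%) and 3 to 59 lower (19.6% to 27.0%), the 59 without siCtrl 1 (27.0%). In 2 alternatives chosen after seeing the data, without siCtrl 1, RLE factors gave 59 lower (27.3%), and library size only 15 higher (38.5%) and 12 lower (16.3%). With library size only the median log2 fold change was 0.0424 for all members, 0.0471 for the large and 0.0360 for the small subunit. In limma it was 0.0493, 0.0528 and 0.0439 on log2(FPKM + 1) and 0.0494, 0.0548 and 0.0440 on log2(FPKM + 0.1), and without siCtrl 1 with library size only it was -0.0109 for all members, 0.0125 for the large and -0.0215 for the small subunit. Leaving out 1 library moved the median of all members between -0.16 and -0.04. The share of reads differed by 0.498 percentage points, by 1.52 of summed FPKM, and by 0.0751 to 0.793 with 1 library left out. DDX17 ranged from -2.66 to -2.30 and was called throughout. Of 78 named genes, 47 kept direction and call in every alternative, and 0 reversed while called.

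No pairing by replicate number was seen over all tested genes. Deviations of same-numbered libraries correlated at 0.00698, 0.0407 and -0.0564, and those of differently numbered ones at -0.0624 to 0.0566. These correlations cannot exclude a pairing that touches only some genes. A replicate block gave 5 higher and 14 lower genes, against 24.0% and 23.9% of all tested genes, and a median of -0.08. Apart from the paralogs, RPS10, RPL17 and RPL26 the members had at least 10631 reads in every library, so the spread between cultures, more than counting error, limits what could be detected.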
